A study of Mus musculus with 48 samples.

Results

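The last 2 days of the 3T3-L1 differentiation course, day 4 to day 6, were examined in cells given control siRNA. The 6 arrays of control siRNA on day 4 and day 6, 3 for each day, were taken from the 48 arrays of the study by siRNA and day, and all 24613 probes were compared between the days. 3T3-L1 is a mouse fibroblast line that turns into fat cells when given adipogenic hormones. Both siRNAs, a non-targeting pool and a SMARTpool against the nuclear receptor PPARγ, were transfected at 50 nM before differentiation began. Confluent cells then received 0.5 mM isobutylmethylxanthine and 0.25 µM dexamethasone for 48 h, followed by 5 µg/ml insulin and 1 µM rosiglitazone for another 48 h. The study counts days from rosiglitazone in some places and from induction in others. On either count the stated 48 h of rosiglitazone had ended by day 4, and the medium was renewed every 2 days. The labels describe 3 independent biological replicates of 1 cell line. The 3 day 5 arrays of control siRNA and the day 4 and day 6 arrays of PPARγ siRNA, called PPARγ KD here, served for comparison.

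By this stage a fat cell has already built its lipid-storing machinery under the control of PPARγ and C/EBP proteins, and it goes on to enlarge its droplets and to acquire hormone and metabolite receptors. When oxygen falls, prolyl hydroxylases stop marking the α subunits of the transcription factor HIF for destruction, and HIF then turns on glucose transport, glycolytic enzymes, angiogenic factors and, as a brake, the prolyl hydroxylase genes themselves. Nothing about oxygen was measured in these cultures, and transcripts of such genes also answer to other signals.

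The deposited intensities had medians of 122.9 to 136.3 on the 6 arrays, and 33.9 to 38.8% of probes lay above background. Replicate 3 stood apart on both days, with 33.9 to 34.7% of probes above background against 38.1 to 38.8% in replicates 1 and 2. Values below are log2 of the scaled intensity, and a change is day 6 minus day 4 on that scale. Changes are taken between days for the same probe. The level of 1 probe beside that of another is a signal and not an amount of transcript. Pparg, the gene the other siRNA targets, read 11.86, 11.75 and 11.68 on day 4 and 12.09, 12.02 and 12.21 on day 6 in control cells. In PPARγ KD its mean was 9.37 on day 4 and 9.78 on day 6, below every control array.

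The labelled cell type was checked against marker genes. All 12 adipocyte markers were above background on at least 3 of the 6 arrays, among them Adipoq (adiponectin), with a day 4 mean of 14.81, and the transcription factor Cebpa, with 7.36. Fabp4, the fatty acid carrier of fat cells, read 8.93, 6.96 and 6.50 on day 4 and 9.39, 7.62 and 6.54 on day 6. For the fatty acid transporter Cd36 replicate 3 was also the lowest, at 5.34 on day 4 and 5.5 on day 6. Both genes had 2 arrays above background on each day, and the part of the probes in these readings was not tested. All 10 fibroblast markers were above background too. Their summed linear signal was 130000 to 146000 on day 4 and 131000 to 145000 on day 6. Whether such transcripts came from undifferentiated cells was not tested, and in bulk cultures fewer cells of a type and less RNA per cell cannot be told apart. None of 7 endothelial markers and 2 of 8 macrophage markers were above background on 3 arrays. The latter, lysozyme Lyz2 and the endotoxin co-receptor Cd14, are also made by other cells, and the defining macrophage genes Adgre1, Csf1r, Ptprc and Itgam were not above background on any array.

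Between day 4 and day 6, 577 probes rose and 427 fell at an adjusted p of at most 0.05, which is 2.34 and 1.73% of all probes (limma, Benjamini-Hochberg over 24613 probes). Counting the brightest probe of each gene, 2.51% of 18750 genes rose and 1.96% fell. Counts of list members below stand beside these shares as description, because the lists were chosen with earlier results of these data known. The rises were the larger changes, with a median of 0.54 against −0.41 for the falls. Only 6 of the falls exceeded 2-fold, whereas 84 of the rises did. The median change over all probes was 0.01. In 571 of the rises and 421 of the falls all 3 replicate pairs moved the same way, and the day 4 and day 6 arrays did not overlap in 409 and 316 of them. Probes past the test were selected for their change, which favours both counts, and neither was taken over all probes. Without replicate 1 the 1004 changed probes became 211, and without replicate 2 they became 255, while 1078 passed without replicate 3.

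The largest rise was that of Sncg, which encodes γ-synuclein, a protein found in neurons and fat cells. It read 7.92, 7.66 and 7.68 on day 4 and 11.05, 11.16 and 11.04 on day 6, so the days did not overlap and the replicates lay close together. The change was 3.33 (SE 0.18), or 10.1-fold, with an adjusted p of 5.37e-16. Its mean on day 5 was 9.72, partway between. Ffar4 (GPR120), a receptor for long-chain fatty acids, was not above background on day 4 at 6.35, 6.41 and 6.26. On day 6 it reached 9.25, 9.15 and 8.93, which is at least 5.90-fold higher against the detection floor of the day 4 arrays (adjusted p 4.27e-13). Egln3, a prolyl hydroxylase that acts on HIF, rose by 2.43 (SE 0.14) from 9.27, 9.42 and 8.36 to 11.76, 11.69 and 10.88. Ankrd37, an ankyrin-repeat gene known as a HIF target, rose by 2.05 (SE 0.18) from 7.29, 7.45 and 6.92 to 9.46, 9.37 and 8.99. Replicate 3 was the lowest of its day for both genes, and the pairs still moved by similar amounts.

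**Figure D1:**
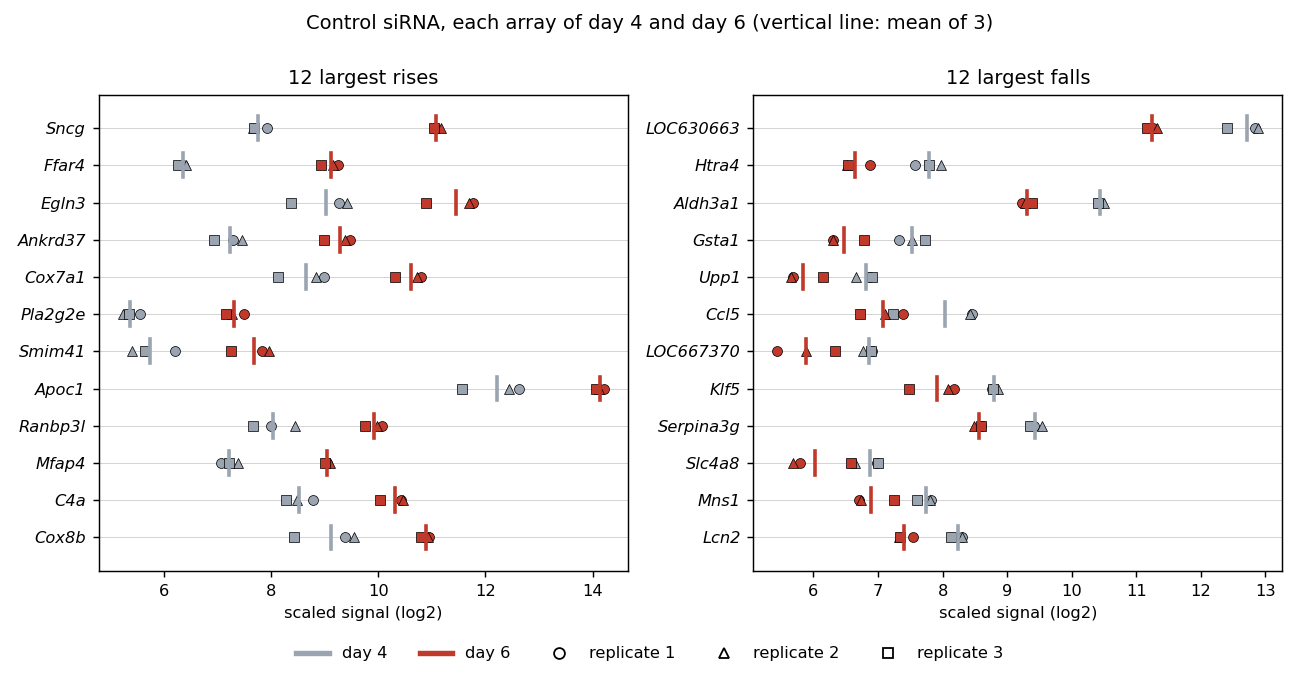
The 12 largest rises (left) and 12 largest falls (right) under control siRNA that were above background on all arrays of the higher day, with scaled signal on a log2 axis. Each point is an array, shape gives the replicate and the vertical line is the mean of 3; the day 6 points of Sncg lie between 11.04 and 11.16, and the day 4 points between 7.66 and 7.92.

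Cox7a1 and Cox8b, the muscle and brown fat forms of cytochrome oxidase subunits, were the next group. Cox7a1 read 8.99, 8.84 and 8.13 on day 4 and 10.80, 10.72 and 10.30 on day 6, a change of 1.96 (SE 0.23). Cox8b went from 9.37, 9.54 and 8.43 to 10.95, 10.92 and 10.79, a change of 1.77 (SE 0.25). They were the only 2 of 68 oxidative phosphorylation genes of the list that rose (2.94%, against 2.51% of all genes). Cox6b1 and Cox5b fell by 0.29 and 0.27 (2.94%, against 1.96% of all genes), and the median of the list was −0.03. Cox6a2, another muscle form that was outside the list and was noted after its value was seen, rose by 0.97 (SE 0.15). Neither fall passed without replicate 1 or without replicate 2, and 7 genes of the list fell without replicate 3. None of 8 other brown fat genes, Ucp1 among them, was above background on any array. Apoc1, an apolipoprotein, was already bright on day 4 and rose by 1.93 (SE 0.16) from 12.63, 12.43 and 11.56 to 14.21, 14.13 and 14.07. Mfap4, a microfibril-associated protein, rose by 1.83 (SE 0.15) from 7.06, 7.37 and 7.21 to 9.03, 9.10 and 9.01. The complement component C4a rose by 1.80 (SE 0.12), although its probe may not separate it from the near-identical C4b. Pla2g2e, a secreted phospholipase, and Smim41, a small membrane protein, were not above background on day 4 and were at least 1.68-fold and 2.19-fold higher on day 6. Ranbp3l completed the 12, with a rise of 1.89 (SE 0.20) from 7.99, 8.44 and 7.66 to 10.06, 9.97 and 9.74.

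The falls were smaller. LOC630663, a model gene that kept its name from the array, dropped by 1.46 (SE 0.16) from 12.83, 12.89 and 12.41 to 11.26, 11.32 and 11.16. Aldh3a1, an aldehyde dehydrogenase, read 10.42, 10.50 and 10.41 on day 4 and 9.23, 9.28 and 9.39 on day 6. This fall of 1.14 (SE 0.12) was even across the replicates. Htra4, a serine protease, also dropped by 1.14 (SE 0.18), from 7.58, 7.98 and 7.79 to 6.87, 6.52 and 6.53. Klf5, a factor that acts early in adipogenesis, dropped by 0.89 (SE 0.12), with day 6 arrays at 8.17, 8.08 and 7.48 below the day 4 arrays at 8.76, 8.86 and 8.78. The uridine phosphorylase Upp1 and the model gene LOC667370 were no longer above background on day 6, and were at least 1.16-fold and 1.19-fold lower. The bicarbonate transporter Slc4a8 was at least 1.20-fold lower on the same basis. Serpina3g (−0.88), Mns1 (−0.85) and the siderophore-binding lipocalin Lcn2 (−0.84) fell without overlap between the days. The chemokine Ccl5 dropped by 0.97 (SE 0.24; adjusted p 0.0116), though its day 4 value in replicate 3, 7.23, lay below the day 6 value of replicate 1, 7.39. Without replicate 1 the adjusted p was 0.312 for Ccl5, 0.137 for Upp1 and 0.0722 for Mns1, and without replicate 2 it was 0.30 for Ccl5 and 0.105 for Mns1.

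The rise of Egln3 and Ankrd37 was shared by a list of 15 hypoxia-response genes. Of these, 13 rose and none fell, or 86.7% against 2.51% of all genes. The list was chosen with earlier results of these data known, so the shares describe it and are not a test. The list median was 0.69 (SD 0.24 over the replicate pairs), beside 0.01 over all genes. Egln1, the main oxygen-sensing prolyl hydroxylase, read 9.05, 9.18 and 9.29 on day 4 and 10.25, 10.48 and 10.25 on day 6, a change of 1.16 (SE 0.10). P4ha1 and P4ha2, collagen prolyl hydroxylases, rose by 0.87 and 0.80. The other rises above background on all 6 arrays were the repressor Mxi1 (0.69), the cytokine Mif (0.65), the lipoprotein receptor Vldlr (0.65), adrenomedullin (Adm, 0.63) and the mitophagy receptor Bnip3l (0.55). Carbonic anhydrase 9 (Car9), a widely used hypoxia marker, was not above background on day 4 and read 7.20, 7.58 and 5.67 on day 6, with replicate 3 again not above background. Higd1a was in the same position with 2 day 6 arrays above background, and Bnip3 passed the test (adjusted p 0.0456) without being above background on any array. Pfkfb4 (0.09) and Ndrg1 (0.40) did not pass. Leaving out replicate 1 or replicate 2 left 8 of the 15 genes past the test, and leaving out replicate 3 left 13.

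The sequences upstream of the 4 largest rises of this list that were above background on all 6 arrays are given here. They are printed because they hold the letters ACGTG, a form of the core that HIF recognises. No other form was searched for or marked. The 250 bases before each start site are from RefSeq (GRCm38.p6), in the direction of transcription, with each ACGTG, or CACGT for a match on the other strand, in capitals.
Egln3, chr12:54203875-54204124, minus strand: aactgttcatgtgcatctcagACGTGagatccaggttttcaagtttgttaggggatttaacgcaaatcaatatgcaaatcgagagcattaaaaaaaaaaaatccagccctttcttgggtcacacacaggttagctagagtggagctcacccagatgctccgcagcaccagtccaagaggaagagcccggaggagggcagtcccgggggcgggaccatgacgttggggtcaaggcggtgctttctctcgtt
Ankrd37, chr8:45999851-46000100, minus strand: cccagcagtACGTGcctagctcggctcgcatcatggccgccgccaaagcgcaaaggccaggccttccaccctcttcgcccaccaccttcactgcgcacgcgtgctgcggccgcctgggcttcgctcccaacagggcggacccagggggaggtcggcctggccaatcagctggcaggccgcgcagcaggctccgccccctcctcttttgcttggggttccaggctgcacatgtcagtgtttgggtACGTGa
Egln1, chr8:124949255-124949504, minus strand: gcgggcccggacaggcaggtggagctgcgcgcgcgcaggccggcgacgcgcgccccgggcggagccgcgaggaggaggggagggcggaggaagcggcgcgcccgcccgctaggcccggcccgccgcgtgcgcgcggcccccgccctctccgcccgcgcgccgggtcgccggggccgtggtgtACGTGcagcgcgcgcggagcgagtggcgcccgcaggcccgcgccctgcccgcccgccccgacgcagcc
P4ha1, chr10:59323046-59323295, plus strand: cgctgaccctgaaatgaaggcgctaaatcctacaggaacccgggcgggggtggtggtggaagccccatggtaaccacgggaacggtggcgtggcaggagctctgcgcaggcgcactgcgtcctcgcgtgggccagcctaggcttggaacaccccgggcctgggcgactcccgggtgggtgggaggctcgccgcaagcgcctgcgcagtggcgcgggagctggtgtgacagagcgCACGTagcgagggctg
Of the 15 listed genes 13 had such a window, and 8 of them (61.5%) held at least 1 match, counting an overlapping palindromic CACGTG as 2. The letters occurred upstream of 9 of 17 glycolysis genes (52.9%) and of 4998 of 27025 genes with a window (18.5%). A gene with several start sites was counted once, if any of its windows held a match. A match is only a run of letters and is not a measured binding site. Sncg and Ffar4 had none in their windows, which says nothing about more distant sequence. Of the 12 largest falls 6 had a window, and 0 of those held a match.

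Glycolysis rose with the hypoxia list. Of 17 genes on the array 10 rose (58.8%) and none fell, and the median change was 0.37 (SD 0.06). Pfkl, the liver form of phosphofructokinase, went from 11.76, 11.84 and 11.80 to 12.86, 12.72 and 12.58. That change of 0.92 (SE 0.09; adjusted p 9.73e-10) was several times the spread of either day. Lactate dehydrogenase A (Ldha) rose by 0.60 (SE 0.10) from 13.30, 13.41 and 13.58 to 13.97, 14.21 and 13.90. Slc2a1 (GLUT1), the basal glucose transporter, rose by 0.58 (SE 0.11) from 11.75, 11.64 and 11.64 to 12.48, 12.32 and 11.97. Pgam1 (0.85), Aldoa (0.53), Pgk1 (0.50), Gpi1 (0.42), Gapdh (0.41), Eno2 (0.37) and Tpi1 (0.32) also rose. Pdk1, a kinase that shuts off pyruvate dehydrogenase, read 9.72, 9.58 and 9.33 on day 4 and 11.04, 11.05 and 10.39 on day 6. Its change of 1.29 (SE 0.12) was the only one past the test among 27 genes of pyruvate entry and the citrate cycle. That is 3.7%, against 2.51% of all genes that rose, and the median of the 27 was −0.07. Of the kinases of the same family, Pdk2 (−0.14) and Pdk3 (−0.05) did not pass. Pdk4, counted here with fatty acid oxidation and so outside the 27, rose by 0.55 (SE 0.13). Only 2 glycolysis genes passed without replicate 1 and 3 passed without replicate 2, against 9 without replicate 3.

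In the full course these genes did not climb steadily in control cells. Egln3 stood at 10.71 ± 0.40 (SD, n = 3) on day 2, at 8.81 ± 0.21 on day 3 and at 10.50 ± 0.61 on day 5. Egln1 was likewise 10.14 ± 0.21 on day 2 and 9.37 ± 0.04 on day 3, before its return to 9.93 ± 0.26 on day 5. Pfkl reached 13.07 ± 0.08 on day 2, above its day 6 mean of 12.72, and then 11.78 ± 0.02 on day 3. Ldha followed the same course, with 14.54 ± 0.06 on day 2 and 13.41 ± 0.05 on day 3. P4ha1 showed no day 2 peak and stood at 8.77 ± 0.24 on day 2 and 8.74 ± 0.06 on day 3. These earlier days are given as levels and were not tested.

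**Figure D2:**
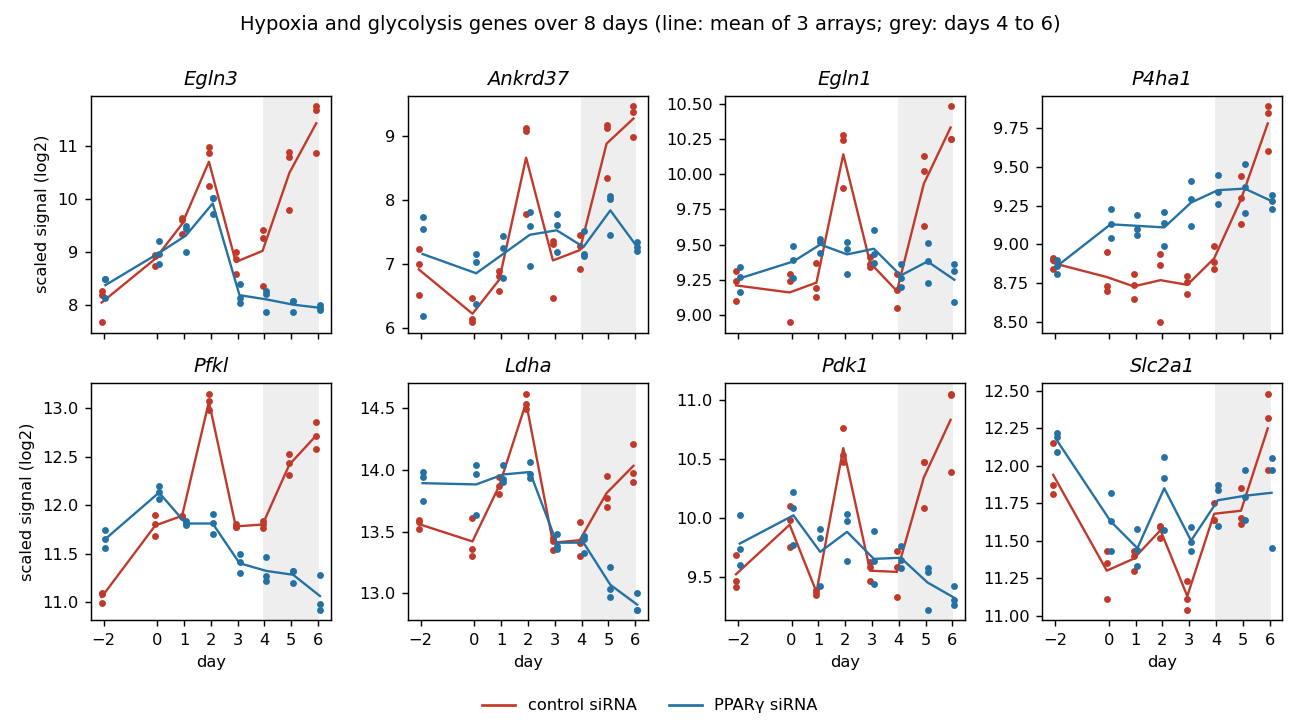
Scaled signal (log2) of 8 hypoxia and glycolysis genes from day −2 to day 6 for control siRNA (red) and PPARγ siRNA (blue), with points for single arrays and lines for the mean of 3. In control cells Egln3, Ankrd37, Egln1, Pfkl, Ldha and Pdk1 peaked on day 2, were lower on days 3 and 4 and rose again by day 6, when Egln3 was at 11.44 against 7.94 with PPARγ siRNA.

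Mature fat cells sense metabolites and catecholamines through surface receptors. Of 13 such receptors 3 rose (23.1%, against 2.51% of all genes) and none fell. Beside Ffar4 these were Hcar2 (GPR109A), the receptor for ketone bodies and niacin, and Hcar1 (GPR81), the lactate receptor. Hcar2 read 8.73, 8.89 and 8.28 on day 4 and 10.32, 10.08 and 9.68 on day 6, a change of 1.39 (SE 0.25). Hcar1 went from 7.64, 7.42 and 7.03 to 8.84, 8.60 and 8.75, a change of 1.37 (SE 0.20). In the lipolysis list, 3 of 11 genes rose (27.3%). Adrb3, the β3-adrenergic receptor that triggers lipolysis, rose by 1.27 (SE 0.13) from 6.90, 6.63 and 6.55 to 7.76, 7.79 and 8.34. G0s2, an inhibitor of the lipase Pnpla2, rose by 0.90 (SE 0.16) and Pnpla3 by 0.98 (SE 0.27). The lipases Pnpla2 (−0.11) and Lipe (0.11) themselves did not pass.

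Among 15 lipid droplet proteins, 5 rose (33.3%, against 2.51% of all genes) and none fell. Bscl2 (seipin), needed for droplet formation, read 10.28, 10.36 and 10.04 on day 4 and averaged 11.11 on day 6, with no overlap between the days. Its change of 0.89 had an SE of 0.07 and an adjusted p of 2.83e-11. The droplet coat protein Plin2 rose by 0.80 (SE 0.07) from 11.49, 11.46 and 11.30 to a day 6 mean of 12.22, again without overlap. Cav2 (caveolin 2) rose by 0.83 and Hilpda, a hypoxia-inducible droplet protein, by 0.50. Without replicate 2 the number that rose was 3. Of 15 triglyceride synthesis genes 0 passed in limma in either direction, with 1 at an unadjusted p under 0.05. With an intensity trend and robust variance 0 passed as well. Gpd1 (0.07), Dgat1 (0.13) and Dgat2 (0.24) moved little. Pck1 had the largest change of this list, 0.85 (SE 0.29, adjusted p 0.0964 in limma), and was not above background on day 4. Of 12 genes of fatty acid uptake and activation, the acyl-CoA synthetase Acsl1 fell by 0.56 (adjusted p 0.0320) and none rose. That is 8.33%, against 1.96% of all genes that fell, and lipoprotein lipase (Lpl) was at 0.00 (SE 0.10). In lipogenesis Thrsp (0.94) and Acss2 (0.49) rose of 22 genes (9.09%), with 1 rising without replicate 1. In fatty acid oxidation Pdk4 (0.55) and Acot2 (0.50) rose of 26 (7.69%). Acsl1, Pdk4 and Acot2 did not pass without replicate 1, nor without replicate 2.

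Fat cells are also a source of hormones and other secreted proteins. Of 16 adipokines 6 rose (37.5%, against 2.51% of all genes) and none fell. Apoe rose by 1.70 (SE 0.20) from 8.22, 7.98 and 7.77 to 9.46, 9.70 and 9.92, and haptoglobin (Hp) by 0.84 (SE 0.14) from a day 4 mean of 12.14. Lep (leptin) passed the test and was at least 1.11-fold higher, but only 1 of its 6 arrays was above background and the day 6 values were 6.86, 6.34 and 6.91. The angiogenic factor Vegfa (0.55), Angptl4 (0.55) and Nampt (0.69) were the others. Adiponectin did not pass (0.39, SE 0.23, adjusted p 0.568). Of the 12 adipocyte markers 0 passed in limma in either direction (3 at an unadjusted p under 0.05, and 1 with an intensity trend and robust variance), with a median of 0.22. Cfd, the complement factor adipsin, changed by 0.53 (SE 0.20), Cidec by 0.05 (SE 0.22) and Plin1 by 0.11 (SE 0.17). Under quantile normalization 2 of the 12 rose. Cfd, Gpd1 and Lpl were among the brightest genes, with day 4 means of 15.01, 15.34 and 15.15. The highest deposited intensity on the 6 arrays was 59842.4, and whether the upper end of the scanner's range bore on such genes was not tested.

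**Figure D3:**
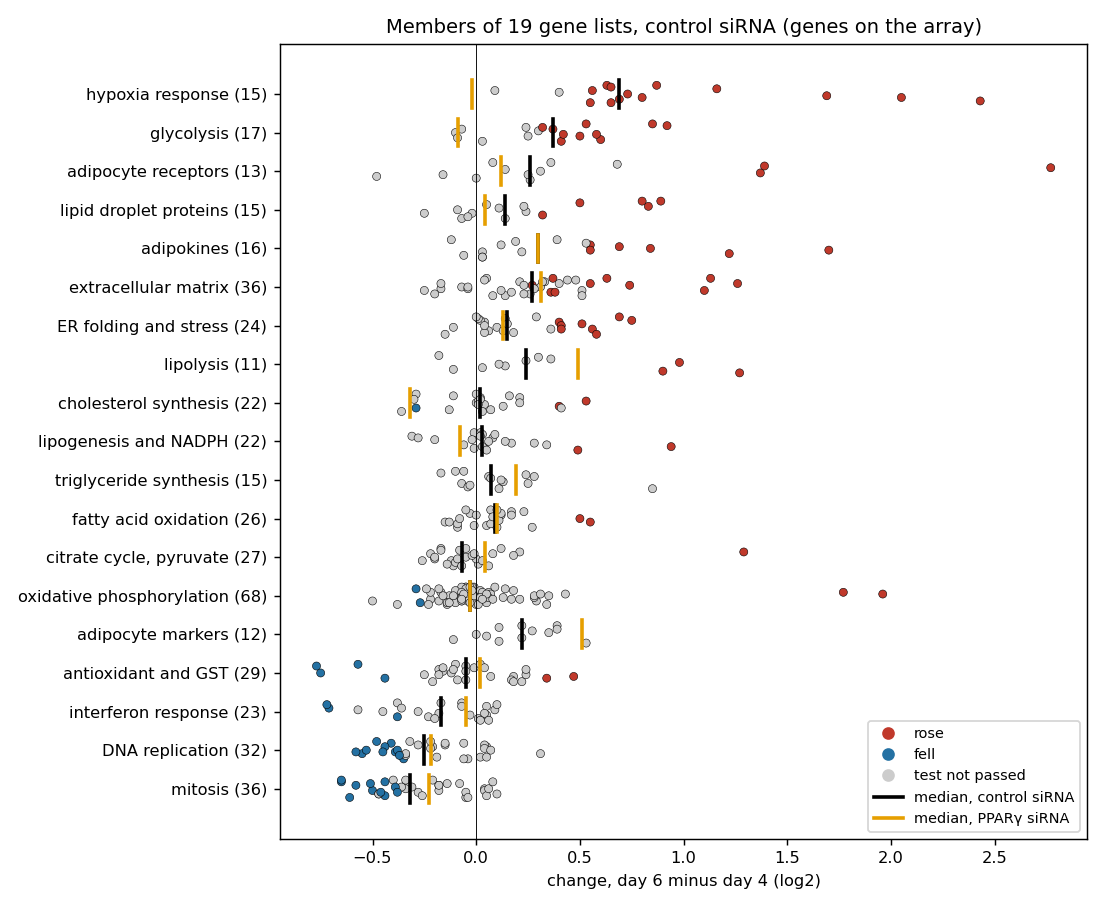
Change from day 4 to day 6 under control siRNA (log2) for each gene of 19 lists, with the number of genes on the array in parentheses. Red genes rose, blue genes fell and grey genes did not pass the test; the black line is the list median and the orange line the median of the same genes with PPARγ siRNA, 0.69 against −0.02 for hypoxia response.

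Genes of the insulin pathway changed singly. Slc2a4 (GLUT4), the insulin-regulated glucose transporter, rose by 0.84 (SE 0.23; adjusted p 0.0251) from 8.68, 8.69 and 8.08 to 9.39, 9.36 and 9.23. Trib3 (0.89), Gys1 (0.42) and Ppp1r3c (0.33) rose and the transcription factor Foxo1 fell by 0.48, of 19 genes. With Slc2a4, 21.1% of this list rose and 5.26% fell, against 2.51 and 1.96% of all genes. Of 23 adipogenic transcription factors, Nr1d1, Klf9 (0.32) and Cebpb (0.31) rose, and Klf5 and the coactivator Ppargc1a fell. Here 13% rose and 8.7% fell, against 2.51 and 1.96% of all genes. Nr1d1 (REV-ERBα), also a repressor of the clock, was not above background on day 4 and was at least 1.81-fold higher on day 6. Ppargc1a read 8.77, 8.81 and 8.90 on day 4 and 8.02, 8.14 and 8.49 on day 6, a fall of 0.61 (SE 0.16). Pparg changed by 0.35 (SE 0.11; adjusted p 0.0806) and did not pass at its brightest probe, while 1 of its other probes did (0.66, adjusted p 0.0449) and another did not (0.51, adjusted p 0.130). Among clock genes Per2 dropped by 0.67 (SE 0.10) from 9.14, 9.30 and 8.95 to 8.60, 8.46 and 8.32, and Tef fell by 0.27. Arntl (0.44) and Rora (0.37) rose, of 15 on the array. Thus 13.3% of clock genes rose and 13.3% fell, against 2.51 and 1.96% of all genes. Per1, counted here with the glucocorticoid-induced genes, rose by 0.60 (adjusted p 0.0198). The hour of harvest was not given in the sources used here. Without replicate 1, 0 insulin pathway genes, 2 transcription factors and 1 clock gene still passed, and without replicate 2 these were 1, 2 and 1.

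Part of the cell division genes fell, and most did not pass the test. Of 36 mitosis genes 11 fell (30.6%, against 1.96% of all genes) and none rose, with a median of −0.32 (SD 0.07). Of 32 DNA replication genes 11 fell (34.4%) and none rose, with a median of −0.25 (SD 0.06). Cenpa, the centromeric histone, read 12.46, 12.46 and 12.38 on day 4 and 11.68, 11.77 and 11.89 on day 6, a fall of 0.65 (SE 0.10). Cdc20, an activator of the anaphase-promoting complex, also fell by 0.65 (SE 0.12), and Ckap2 (−0.61), Birc5 (−0.58) and Mki67 (−0.46) fell. The helicase subunit Mcm5 fell by 0.58 (SE 0.11) from 11.79, 11.80 and 11.96 to 11.39, 11.11 and 11.32. Tk1 (−0.53) and Lig1 (−0.48) fell as well. The medians were negative in each replicate pair for both lists, at −0.28, −0.34 and −0.21 for mitosis. Single calls were less firm. Without replicate 1 no gene of either list passed, and without replicate 2 there were 3 mitosis genes and 1 replication gene, against 12 and 10 without replicate 3.

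Several glutathione S-transferases fell together with Aldh3a1. In the antioxidant list of 29 genes, 4 fell (13.8%, against 1.96% of all genes), all of them glutathione S-transferases. The heme oxygenase Hmox1 (0.47) and Prdx5 (0.34) rose (6.9%, against 2.51% of all genes). Gsta4, which conjugates lipid aldehydes, went from 12.95, 13.18 and 13.34 to 12.30, 12.21 and 12.66, a fall of 0.77 (SE 0.09). Gsta3 (−0.75), Gstt1 (−0.57) and Gstm1 (−0.44) were the others. Gsta1, one of the 12 largest falls, went from 7.32, 7.53 and 7.73 to values not above background and was at least 1.90-fold lower. Probes of this family can cross-react between close members, and Gsta1 and Gsta3 are given as the array names them. Without replicate 1, as without replicate 2, 2 of the 4 list members passed.

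Extracellular matrix genes rose in part. Of 36 genes 10 rose (27.8%, against 2.51% of all genes) and none fell, with a median of 0.27 (SD 0.08). Without replicate 1, as without replicate 2, 3 passed. Fbn1 (fibrillin 1) rose by 0.74 (SE 0.11) from 11.23, 11.16 and 11.49 to 12.09, 12.18 and 11.81, and fibronectin (Fn1) by 0.63 (SE 0.10). Ccn2 (1.26) and Ccn1 (1.10), matricellular proteins, also rose. Ccn2 went from 6.91, 6.63 and 5.87 to 8.62, 8.54 and 6.03, with little change in replicate 3. Ccn1 read 9.02, 9.05 and 7.13 on day 4 and 10.42, 10.23 and 7.85 on day 6. Of 24 genes for protein folding and stress in the endoplasmic reticulum, 8 rose (33.3%) and none fell. Chac1 (0.75), Hspa5 (0.58), Xbp1 (0.41) and Ddit3 (0.41) were among the 8 that rose. Leaving out replicate 1 brought this count to 0, leaving out replicate 2 to 1 and leaving out replicate 3 to 5. Dusp1, a glucocorticoid- and stress-induced phosphatase, rose by 1.10 (SE 0.09) from 10.90, 10.79 and 10.55 to 11.97, 11.91 and 11.66. In the interferon-response list Ifit3 (−0.72) and Gbp3 (−0.71) fell. Ifit3 was not above background on day 6 and was at least 1.04-fold lower. Neither passed without replicate 1, and at most 1 of them did without replicate 2. Beside these, Lyz2 and Cd14 of the macrophage list fell by 0.59 and 0.53, and the summed signal of that list went from 665 to 779 on day 4 down to 545 to 611 on day 6. Their part in the result was not tested, and neither passed without replicate 1 or without replicate 2.

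The day 5 arrays divide the interval into 2 steps. The day 5 mean lay between those of day 4 and day 6 for 531 of the 577 rises and 390 of the 427 falls. These probes were selected for the change between the outer days, which favours a day 5 mean in between, and no share over all probes was taken. The counts also do not say how the change divided between the steps. Of the rises 89 also passed the test on the first step and 92 on the second, and of the falls 31 and 35. Taken alone, day 4 to day 5 gave 143 changed probes, or 0.581%, and day 5 to day 6 gave 157, or 0.638%. Of the latter 71.3% rose, and 58.2% did so under quantile normalization. Mfap4 made its rise in the first step, by 1.72 (adjusted p 4.01e-09), and changed by 0.11 in the second. Ranbp3l changed by 0.75 (adjusted p 0.0865) in the first step and rose by 1.14 (adjusted p 0.00277) in the second. Sncg rose in both, by 1.97 and 1.36. Slc2a1 was at 11.70 on day 5, close to its day 4 mean of 11.68, and reached its higher level only on day 6.

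The same interval was compared in PPARγ KD cells, to set each change beside the one seen when PPARγ was reduced. The study reports that differentiation was abolished under PPARγ siRNA. Less PPARγ and a different state of the cells cannot be told apart in this comparison. In PPARγ KD 259 probes rose (1.05%) and 274 fell (1.11%), with a median over all probes of 0.10. Of the 577 probes that rose in control cells, 93 rose and 7 fell in PPARγ KD, and of the 427 that fell, 92 fell and 2 rose. The difference between the 2 changes was itself tested, and 167 probes passed (0.679%, or 0.789% of genes), 120 of them with the higher change in control cells. Among the probes that changed in control cells, 128 passed this test and 876 did not. Those probes were selected on the same control arrays that enter this test, which favours a larger change in control cells. Without replicate 1 the 167 became 27, without replicate 2 they became 29, and without replicate 3 they became 260.

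**Figure D4:**
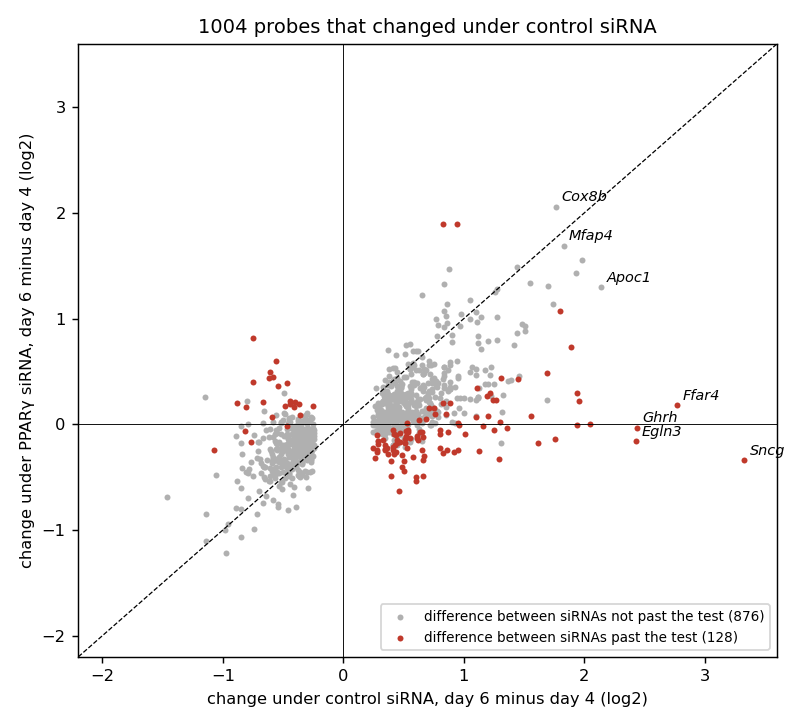
Change from day 4 to day 6 (log2) under control siRNA (horizontal) and PPARγ siRNA (vertical) for each of the 1004 probes that changed in control cells, with equal change on the dashed line. Red probes, 128 in number, passed the test of the difference; Sncg, Egln3, Ghrh and Ffar4 lie at the far right near zero on the vertical axis, and Cox8b, Mfap4 and Apoc1 nearer the dashed line. Fitted values are drawn, also for probes not above background on some days. The probes were selected for their change under control siRNA, which favours a larger change there.

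Sncg changed by −0.34 (SE 0.18) in PPARγ KD, and the difference from control was 3.67 (adjusted p 1.90e-12). For Egln3 the difference was 2.59 and for Ankrd37 2.05, with changes of −0.16 and 0.00 in PPARγ KD. Ffar4, Smim41, Pla2g2e and Cox7a1 also passed this test in the same direction, but none of them was above background on any PPARγ KD array of day 4 or day 6, so no size is given. Ghrh, growth hormone-releasing hormone, was not above background on day 4 and read 8.0, 8.04 and 6.64 on day 6 in control cells, and it too was not above background in PPARγ KD. Its difference passed (adjusted p 0.000497) but had an adjusted p of 0.163 without replicate 1 and 0.179 without replicate 2. For Smim41 the adjusted p was 0.0578 without replicate 2. The hypoxia list had a median of −0.02 in PPARγ KD, and 9 of its genes passed the test of the difference, all higher in control. Glycolysis had a median of −0.09 there, and 7 of its genes passed, all higher in control. Ldha fell by 0.50 in PPARγ KD (adjusted p 0.00245), a difference of 1.09. Pdk1 (1.62), Plin2 (0.89), Bscl2 (0.69), Cav2 (1.11) and Dusp1 (1.03) also differed. Adrb3 passed as well (adjusted p 0.0015), again with no PPARγ KD array above background. The differences of Cox7a1, Pla2g2e, Ranbp3l and C4a (0.73) passed with all arrays but not without replicate 1 (adjusted p 0.171, 0.195, 0.515 and 0.340), nor without replicate 2 (0.180, 0.0859, 0.229 and 0.292). Ranbp3l and C4a also did not pass without replicate 3 (0.113 and 0.0856). At the other probes of C4a the difference did not pass in limma with all arrays (0.60 and 0.54, adjusted p 0.266 and 0.714). Ranbp3l was not above background on day 4 in PPARγ KD. For Hcar1 (adjusted p 0.138) and Hcar2 (adjusted p 0.335), neither above background in PPARγ KD, the difference did not pass.

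Some genes passed the test in both. Cox8b was not above background in PPARγ KD on day 4 and reached a mean of 7.26 on day 6 (adjusted p 1.30e-06), and its difference from control did not pass (adjusted p 0.875). Mfap4 (difference 0.14), Apoc1 (0.49), Apoe (0.39), Klf5 (−0.10), Htra4 (−0.04) and Per2 (0.07) did not differ past the test either. Extracellular matrix genes had a median of 0.31 in PPARγ KD with 11 of 36 rising. Mitosis and replication had medians of −0.23 and −0.22, with 2 of 36 and 6 of 32 falling there. Over all probes 1.05% rose and 1.11% fell in PPARγ KD. The test of the difference was passed by 0 mitosis and 0 replication genes in limma (1 and 1 at an unadjusted p under 0.05). Cholesterol synthesis was a separate case. In control cells Cyp51 (0.40) and Tm7sf2 (0.53) rose and Stard4 fell by 0.29 of 22 genes, with a median of 0.02. That is 9.09% up and 4.55% down, against 2.51 and 1.96% of all genes. In PPARγ KD 9 of the 22 fell and none rose, with a median of −0.32, where 1.11% of all probes fell. The test of the difference was passed by 5 of the 22, all higher in control, Cyp51 among them with 0.89. The 2 rises and 1 fall in control cells did not pass without replicate 1.

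For 4 of the 12 adipocyte markers the change was lower in control cells past the test, and for none was it higher. In PPARγ KD 7 of the 12 rose, from far lower levels, where 1.05% of all probes rose. Cfd rose by 2.68 there (10.30 to 12.98), so that its difference from control was −2.15 (adjusted p 4.71e-06). Cidec (−1.82), carbonic anhydrase 3 (Car3, −1.85), Gpd1 (−1.28), and Pnpla2 (−1.16) differed in the same sense, as did Plin1, which was not above background in PPARγ KD. BC054059 differed by −1.38. Olfml1 passed both for its fall in control cells and for the difference, but it was above background on only 1 control array and on no PPARγ KD array, so no size is given. Its fall did not pass without replicate 2 (adjusted p 0.0711). Ppargc1a (−1.12), Acsl1 (−1.16), Gsta3 (−1.15) and Gsta4 (−0.60) differed likewise, each of them falling in control cells. On day 6 Cfd was still 15.53 in control cells against 12.98 in PPARγ KD, and Cidec 13.73 against 10.31. The adjusted p of the difference reached 0.116 for Cidec without replicate 2, and for Car3 it was 0.0636 and 0.0645 without replicate 1 and without replicate 2. For BC054059 it was 0.195 and 0.192 in the same order. For Gpd1 it was 0.0918 without replicate 1.

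**Figure D5:**
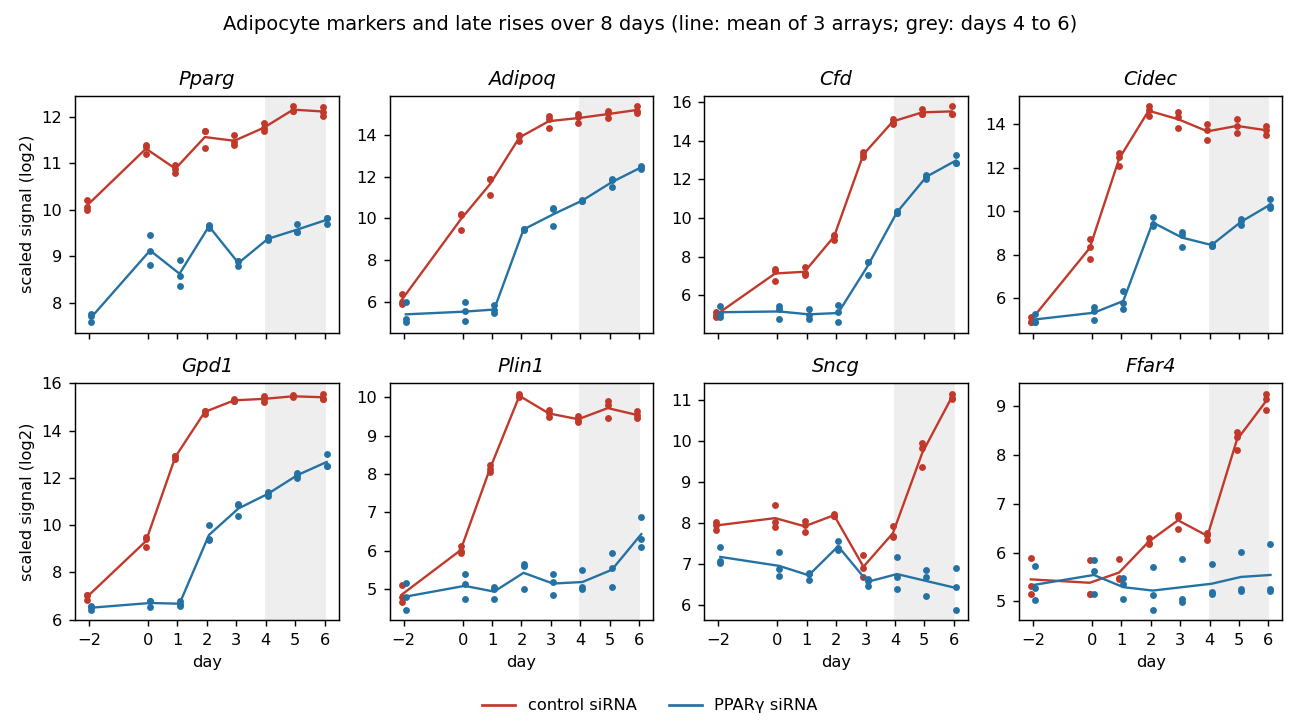
Scaled signal (log2) of 6 adipocyte genes and of Sncg and Ffar4 from day −2 to day 6 for control siRNA (red) and PPARγ siRNA (blue), with points for single arrays and lines for the mean of 3. In control cells Adipoq, Cfd, Cidec, Gpd1 and Plin1 were near their highest level by day 4, while Sncg rose from 7.75 to 11.08 between day 4 and day 6.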

How the data were processed

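RNA of 3T3-L1 cells was hybridised to Illumina MouseRef-8 v1.1 BeadChips, 1 array per sample. The deposited table holds, for each probe and array, an intensity that the authors exported from BeadStudio 3.3.7 without normalization, and a detection score, a fraction equal to 1 minus the detection p-value. Arrays carry no read depth, and their number limits the precision.

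Background was corrected from the detection p-values (nec, offset 16) in limma 3.58.1 under R 4.3.3. Arrays were scaled on probes of stable rank between the 50th and 90th percentiles (rank shift under 0.05), as the study's rank-invariant normalization implies, and log2 was taken. A linear model over all 48 arrays estimated every siRNA-by-day mean, with replicates as blocks, in place of the study's analysis of variance with batch removal. Adjusted p-values are Benjamini-Hochberg over 24613 probes with a threshold of 0.05. A probe was above background at a detection p under 0.01. Same-numbered arrays of day 4 and day 6 deviated together (correlations 0.734, 0.606 and 0.877), but so did replicates 1 and 2 across numbers (0.56 and 0.716), with replicate 3 opposite to both (−0.657 to −0.818), and the labels give the numbers to independent replicates. An "at least" fold takes, for every array of the dimmer day, the dimmest detected probe as the floor, or the probe's own signal if higher.

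Genes are shown by their brightest probe, with array symbols updated through RefSeq (18343 probes by symbol, 4361 by synonym, 1794 not matched and 115 matching several genes). Named were the 12 largest rises and falls changed the same way in all pairs and above background on the higher day, the leading members of 36 gene lists, Pparg, and the 6 largest differences between siRNAs each way. Further list members were named after their values were seen. The members and lists were chosen with earlier results of these data known. Alternatives covered normalization, background, offset, a dim probe filter, the replicate block, which arrays entered, the variance model, Bonferroni adjustment and leaving out each replicate. The fit was tested on simulated data. The other days entered the model and so its variance and block, day 5 was also tested, and earlier days are otherwise given as levels. Some list members are not reported here.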

Additional observations from a re-analysis of the deposited data

Results flagged for a closer look

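The change from day 4 to day 6 differed between control siRNA and PPARγ siRNA at 167 probes, by the test of the difference in limma at an adjusted p of 0.05. Among the largest rises of control cells the difference, control minus PPARγ siRNA, was 3.67 for Sncg, 2.59 for Egln3, 2.58 for Ffar4, 2.05 for Ankrd37, 1.95 for Smim41, 1.73 for Cox7a1, 1.64 for Pla2g2e, 1.16 for Ranbp3l and 0.73 for C4a on the log2 scale. The other probes of C4a did not pass the test of the difference. The rises were selected on the same control arrays that enter the difference, which favours a larger one. Ghrh, which was not above background on day 4, had 2.47. Lower changes in control cells were found for Cfd (−2.15), Car3 (−1.85), Cidec (−1.82), Olfml1 (−1.58), BC054059 (−1.38) and Gpd1 (−1.28). Ffar4, Smim41, Cox7a1, Pla2g2e, Ghrh and Olfml1 were not above background on any PPARγ siRNA array of day 4 or day 6, and Ranbp3l was not on day 4, so their values are fitted differences and not measured sizes. Sncg was above background on only 1 PPARγ siRNA array of day 6, so its size rests in part on signals near background. Groups of 3 arrays are too small for a search for single outlying arrays.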

How the results depend on the processing

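Replicate 3 stood apart, and what set it apart is not given in the labels. In the order day 4 to 6 in control cells, day 4 to 5, day 5 to 6, day 4 to 6 in PPARγ KD, and the difference between siRNAs, the changed probes numbered 1004, 143, 157, 533 and 167. Without the replicate block, which sets the pairing aside, they numbered 288, 41, 10, 119 and 42. With the groups compared alone they were 384, 63, 23, 142 and 51, and with Bonferroni adjustment 165, 40, 17, 87 and 42. Leaving out each replicate gave 211 to 1078, 22 to 227, 2 to 359, 87 to 491 and 27 to 260. Quantile normalization gave 250 for day 4 to 5, 337 for day 5 to 6 and 267 for the difference. For day 5 to 6 a dim probe filter gave 335, the arrays of 1 siRNA alone 320, and an intensity trend with robust variance 252. Arrays of the same day and replicate as a random block gave 77 for the difference. The other 29 counts stayed within 1.5 times the main count, and no direction of a named gene was reversed. Of the list medians 27 of the recomputed values moved by more than the spread between replicate pairs, 10 of them under the dim probe filter (adipokines to 0.53, receptors to 0.68, DNA replication to −0.34), and 439 did not. Of the named genes, Ccl5 (adjusted p 0.423), Slc4a8 (0.0750) and Olfml1 (0.193) did not pass without the replicate block, nor did the differences of Ankrd37 (0.0591), Pla2g2e (0.0647), Ranbp3l (0.163) and C4a (0.265). Why these counts moved was not tested; fewer arrays entered where a replicate or siRNA was left out. Probes not above background have only a bound.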

Other observations

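A few genes outside the lists are given as values. They were picked after their values were seen, so the adjusted p-values describe only the fit over all probes. Egr1, an immediate-early transcription factor, read 11.68, 11.43 and 10.79 on day 4 and 13.48, 13.39 and 11.67 on day 6, a change of 1.55 (adjusted p 0.000221 in limma), and changed by 1.34 in PPARγ KD. Egr2 changed by 1.98 and Fos by 1.28 in control cells, each with 2 of 3 day 4 arrays above background. The phosphatase gene Dusp6 changed by 1.45 in control cells and by 0.43 in PPARγ KD. The succinate receptor Sucnr1 changed by 1.32 in control cells.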
